A study of Mus musculus with 18 samples.

Results

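The genes described here were 10 regulators of the primitive streak and of the mesoderm that leaves it, T, Eomes, Mixl1, Gsc, Evx1, Cdx1, Cdx2, Mesp1, Wnt3 and Fgf8, out of 55469 genes quantified by RNA-Seq in 18 mouse libraries. They were found by their gene names, and each name matched 1 gene. The set was chosen by the FPKM of T and Cdx2, which had been seen to be high in OSKM-ESCs of day 38, so all day 38 values of the 10 genes are given below as a description, without a test. The libraries fell into 9 groups of 2.

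OSKM-ESCs and 2iL-ESCs came from 1 ESC line, Tet-On-OSKM/Oct4-GFP, a cross of (C57BL/6 x 129S4/SvJae)F1 with (CBA/CaJ X C57BL/6J)F2. Both therefore carried M2rtTA in Rosa26, a polycistronic cassette of Oct4, Sox2, Klf4 and Myc (OSKM) in Col1a1 that doxycycline (DOX) switches on, and GFP driven by the distal Oct4 promoter. OSKM-ESCs grew in N2B27 with 2 μg/mL DOX and without other additions. 2iL-ESCs grew in N2B27 with LIF, the MEK inhibitor PD0325901 and the GSK3 inhibitor CHIR99021. Both were collected at days 18, 25 and 38. OSKM-iPSCs (clones 1 and 3, passages 7 and 6) and 2iL-iPSCs (clones 3 and 6, passages 2 and 3) were reprogrammed from Tet-On-OSKM MEF cells of (C57BL/6 x 129S4/SvJae)F1 origin. Per the study's methods, 2iL-iPSCs were induced in 2iL with DOX that was withdrawn after picking, whereas the labels give N2B27 with DOX for their routine culture. They were grouped as 2iL-iPSCs by their titles. MEF cells were at passage 4. Per the study's methods, MEF feeder cells were used in the derivation of the ESCs, in their later culture in 2iL and in the induction of the iPSCs. Nothing in the labels says that the libraries of a group came from separate cultures, so p-values measure the spread between these libraries, which may be technical.

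The primitive streak is the furrow through which epiblast cells leave the epiblast at gastrulation to form mesoderm and definitive endoderm. Wnt3 and Nodal signals set it up, the T-box factors T (Brachyury) and Eomes and the homeobox factors Mixl1, Gsc and Evx1 mark its parts, and Mesp1 marks the earliest mesoderm to leave it. Later, T, Cdx1, Cdx2, Fgf8 and Wnt3a sustain the posterior end of the embryo from which the paraxial mesoderm grows out. In ESC culture, inhibition of GSK3 stabilizes β-catenin, the coactivator of the TCF/LEF factors, and several of these genes, among them T and Cdx1, are known WNT targets.

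In GRCm38 coordinates, T lies at chr17:8434423-8442496 on the plus strand, Cdx2 at chr5:147300805-147307270 on the minus strand, Fgf8 at chr19:45736798-45742915 on the minus strand and Wnt3 at chr11:103774150-103817957 on the plus strand. RefSeq promoter windows (GRCm38.p6, 250 bases before to 50 after the annotated start) were matched for 7 of the 10 genes, T, Eomes, Gsc, Evx1, Cdx2, Mesp1 and Wnt3. The windows were searched on both strands for the TCF/LEF words CTTTGAT and CTTTGAA, which differ in their last base, and for the T-box word TCACACCT. Of 32544 different promoter windows, 3.73% held CTTTGAT, 5.15% CTTTGAA, 8.67% either of them, and 1.28% TCACACCT. A match was found in 2 of the 7 windows, and those of T and Mesp1 are printed for it, with the matches in capitals. The window of T (chr17:8434173-8434472, plus strand) held CTTTGAA on the opposite strand, starting at position -235 from the start site. The window of Mesp1 (chr7:79793541-79793840, minus strand) held CTTTGAA on the opposite strand at -73, CTTTGAT at -31 and TCACACCT at 5. The window of Cdx2 (chr5:147307200-147307499, minus strand) is shown beside them because Cdx2 was the other gene that chose the set, and it held none of the 3 words.
T: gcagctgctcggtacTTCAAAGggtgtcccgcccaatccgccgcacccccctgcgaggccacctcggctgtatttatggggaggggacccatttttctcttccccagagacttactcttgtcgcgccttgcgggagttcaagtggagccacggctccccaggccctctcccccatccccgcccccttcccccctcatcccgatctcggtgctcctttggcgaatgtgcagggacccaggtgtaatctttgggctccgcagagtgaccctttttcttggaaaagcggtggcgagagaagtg
Mesp1: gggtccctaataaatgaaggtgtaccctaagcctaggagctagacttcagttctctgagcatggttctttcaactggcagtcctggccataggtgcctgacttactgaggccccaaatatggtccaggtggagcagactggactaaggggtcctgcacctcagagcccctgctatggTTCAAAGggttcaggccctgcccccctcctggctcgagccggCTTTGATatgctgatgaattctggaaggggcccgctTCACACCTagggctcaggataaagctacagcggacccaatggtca
Cdx2: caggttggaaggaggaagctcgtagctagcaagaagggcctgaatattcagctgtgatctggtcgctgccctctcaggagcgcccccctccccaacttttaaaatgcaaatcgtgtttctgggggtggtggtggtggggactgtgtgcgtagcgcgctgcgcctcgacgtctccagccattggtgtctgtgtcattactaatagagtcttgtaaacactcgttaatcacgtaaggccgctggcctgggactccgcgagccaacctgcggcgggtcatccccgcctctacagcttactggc

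Levels are FPKM as deposited, fragments scaled to transcript length and to the mapped fragments of the library, a scale on which genes can be compared per length. Without read counts in the files, the number of reads behind a value is unknown, and intervals for counting error could not be formed. The median coverage per unit of FPKM over genes with an FPKM over 1, which rises with depth, lay between 2.99 and 3.62, and 11303 to 12095 genes per library had an FPKM over 1. A gene listed at 0 can be a failed estimate, since the files list Foxd3, Evx2 and Sox1 at 0 in all 18 libraries. Differences between groups are differences of mean log2(FPKM + 1), which understate the change of low genes, and a gene was called when its Benjamini-Hochberg adjusted p from limma was under 0.05 over all genes tested. Genes were tested when their FPKM was over 1 in at least 1 library compared.

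T was the most abundant of the 10 genes in OSKM-ESCs on each day. T stood at 34.3 and 48.9 FPKM in OSKM-ESCs of day 18, at 13.8 and 13.3 at day 25 and at 194 and 198 at day 38. In 2iL-ESCs T was at 5.16 and 6.35 at day 18, at 1.18 and 1.69 at day 25 and at 3.37 and 2.79 at day 38. The OSKM-ESC and 2iL-ESC libraries did not overlap on any day. T was at 3.53 and 0.659 FPKM in OSKM-iPSC clones 1 and 3, at 2.04 and 1.23 in 2iL-iPSC clones 3 and 6, and at 0.0955 and 0 in MEF cells. The iPSC groups overlapped, and their range lay below each OSKM-ESC library. In the order of its group means, OSKM-ESCs of days 38, 18 and 25 and then 2iL-ESCs of day 18 each stood clear of the next, while the neighbours among 2iL-ESCs of day 38, OSKM-iPSCs, 2iL-iPSCs and 2iL-ESCs of day 25 overlapped.

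Cdx2, a homeobox gene of posterior mesoderm and also of the trophectoderm, was high in 1 group only. Cdx2 stood at 26.3 and 24.5 FPKM in OSKM-ESCs of day 38. In OSKM-ESCs it was at 0.849 and 0.929 at day 18 and at 0.690 and 0.643 at day 25, and in 2iL-ESCs at 1.31 and 1.10 at day 18, at 0.0927 and 0 at day 25 and at 0.279 and 0.211 at day 38. It was at 0.426 and 0.277 in OSKM-iPSCs, at 0.853 and 0.264 in 2iL-iPSCs and was listed at 0 in both MEF libraries. Each library outside OSKM-ESCs of day 38 was thus under 1.5 FPKM, and the mean at day 38 was 28.6 times that of OSKM-ESCs of day 18 and 38.1 times that of day 25. The day 18 OSKM-ESCs lay below the day 18 2iL-ESCs for this gene, and the day 25 OSKM-ESCs above the day 25 2iL-ESCs.

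**Figure D1:**
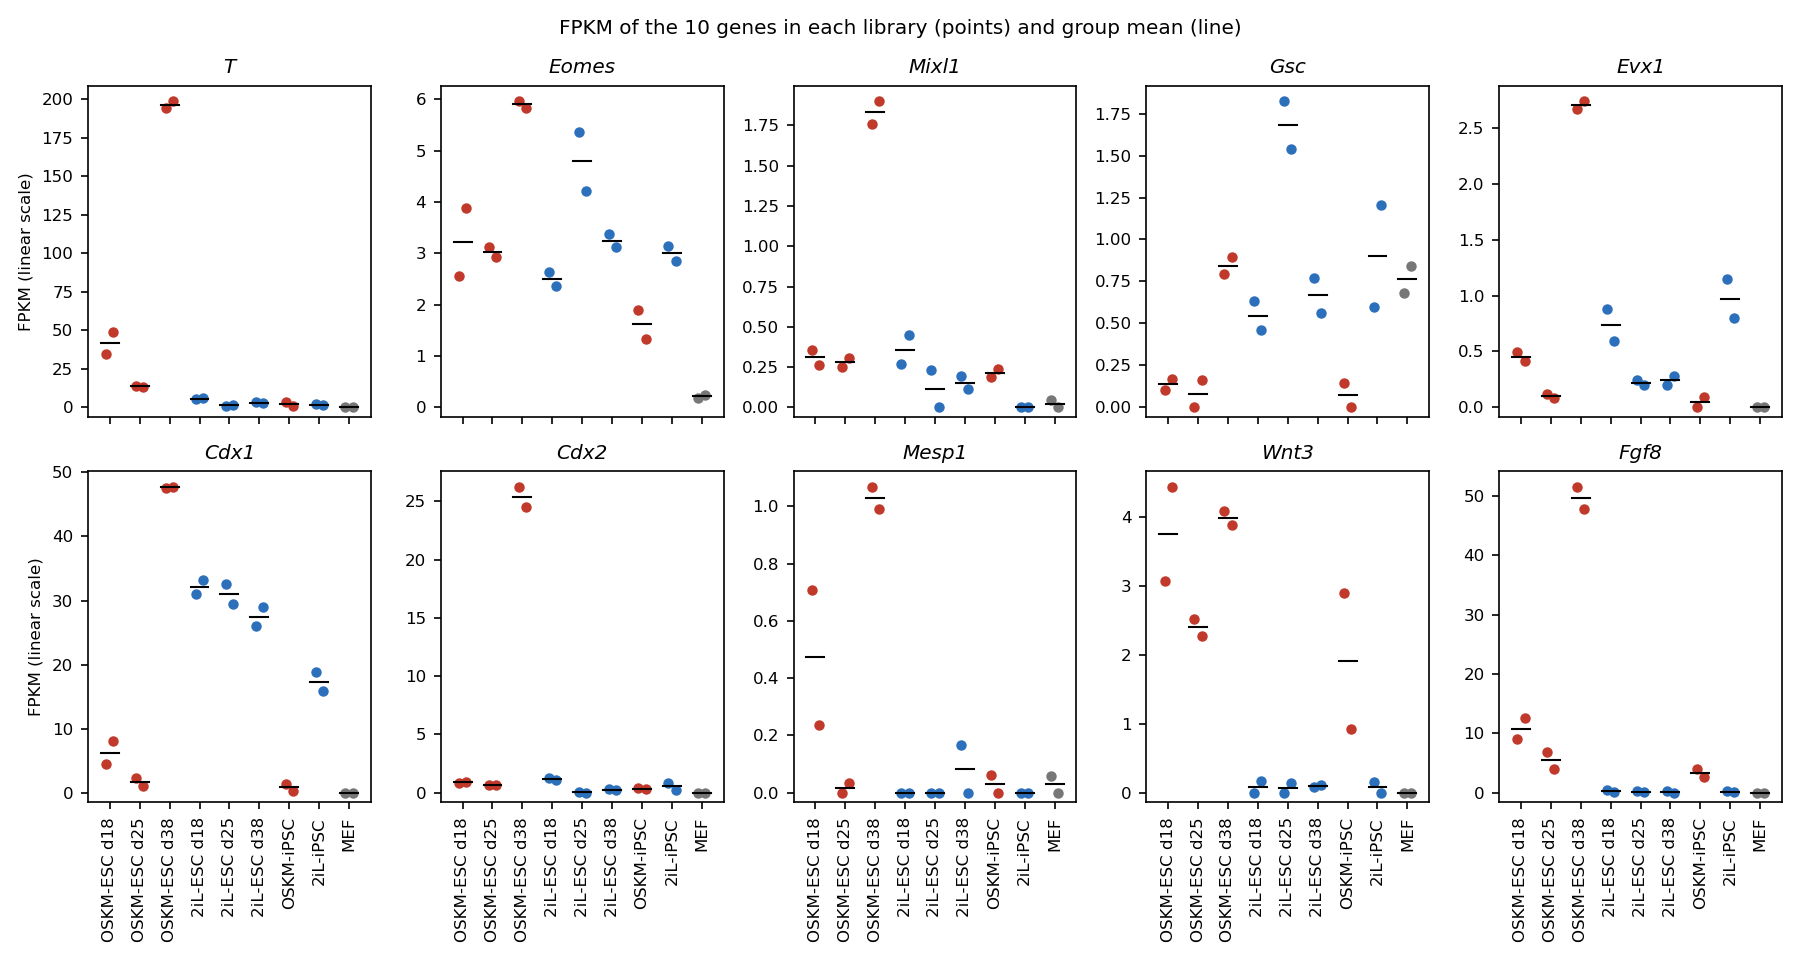
FPKM of each of the 10 genes (linear y axis, own scale per gene) in the 2 libraries of each of the 9 groups (points; red, OSKM medium; blue, 2iL; grey, MEF cells), with the group mean as a line. OSKM-ESCs of day 38 have the highest mean for 9 genes, with T at 194 and 198, and Gsc is highest in 2iL-ESCs of day 25.

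The ligands Fgf8 and Wnt3 were found in OSKM cells of every kind and hardly in 2iL cells. Fgf8, which drives cells out of the streak and maintains the posterior growth zone, stood in OSKM-ESCs at 9.10 and 12.5 FPKM at day 18, at 6.83 and 4.07 at day 25 and at 51.6 and 47.8 at day 38. In the 6 libraries of 2iL-ESCs Fgf8 ranged from 0 to 0.400 FPKM. In OSKM-iPSCs it was at 3.93 and 2.63, against 0.214 and 0.0853 in 2iL-iPSCs, and it was listed at 0 in MEF cells. Wnt3, the ligand that starts streak formation, was lower at day 25 than at days 18 and 38 in OSKM-ESCs. Wnt3 stood in OSKM-ESCs at 3.08 and 4.44 FPKM at day 18, at 2.52 and 2.27 at day 25 and at 4.09 and 3.88 at day 38, and only its day 18 and day 38 libraries overlapped. It ranged from 0 to 0.163 FPKM in 2iL-ESCs, was at 2.90 and 0.923 in OSKM-iPSCs and at 0.161 and 0 in 2iL-iPSCs, and was listed at 0 in MEF cells.

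Cdx1, a paralog of Cdx2 that patterns the axis, had the opposite arrangement at days 18 and 25. Cdx1 stood at 31.1 and 33.2 FPKM in 2iL-ESCs of day 18, at 32.6 and 29.4 at day 25 and at 25.9 and 29.0 at day 38. In OSKM-ESCs it was at 4.42 and 8.10 at day 18 and at 2.27 and 1.13 at day 25, below each 2iL-ESC library, and at 47.6 and 47.8 at day 38, above each of them. In iPSCs Cdx1 was at 1.36 and 0.301 in the OSKM clones and at 18.8 and 15.9 in the 2iL clones. It was therefore the most abundant of the 10 genes in 2iL-ESCs and in 2iL-iPSCs. MEF cells listed it at 0 and 0.0322.

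The remaining 5 genes were low throughout. Eomes, which is needed for mesoderm and definitive endoderm to leave the epiblast and is also a trophoblast gene, ranged from 1.34 to 5.97 FPKM over the 16 ESC and iPSC libraries and was at 0.188 and 0.244 in MEF cells. It was at 5.97 and 5.84 in OSKM-ESCs of day 38 and next at 5.37 and 4.20 in 2iL-ESCs of day 25, and those groups did not overlap. Gsc, the gene of the anterior streak or organizer, was highest in 2iL-ESCs of day 25, at 1.82 and 1.54 FPKM. In OSKM-ESCs Gsc was at 0.103 and 0.170 at day 18, at 0 and 0.164 at day 25 and at 0.792 and 0.897 at day 38, the last of which overlapped with MEF cells at 0.679 and 0.844.

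Evx1, a marker of the posterior streak, stood at 2.67 and 2.74 FPKM in OSKM-ESCs of day 38, at 1.15 and 0.799 in 2iL-iPSCs and at or under 0.880 in every other library. Mixl1, a target of Nodal signals in the streak, stood at 1.76 and 1.90 FPKM in OSKM-ESCs of day 38 and at or under 0.446 elsewhere. Mesp1 stood at 1.07 and 0.990 FPKM in the same cells, at 0.708 and 0.236 in OSKM-ESCs of day 18, and at or under 0.166 elsewhere. For these 3 genes the day 38 OSKM-ESC libraries stood apart from all others, at levels well below those of T, Fgf8, Cdx1 and Cdx2 per length.

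Summed over the 10 genes, OSKM-ESCs of day 38 had 335 and 336 FPKM, OSKM-ESCs of day 18 had 56.0 and 79.9, and those of day 25 had 24.9 and 29.6. The sums in 2iL-ESCs ranged from 34.7 to 44.9 and in 2iL-iPSCs from 22.3 to 27.0, most of it Cdx1, and in OSKM-iPSCs from 6.46 to 14.4. In MEF cells they were 1.07 and 1.12. These are totals of RNA from whole cultures, in which more cells of a kind and more RNA per cell cannot be told apart.

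**Figure D2:**
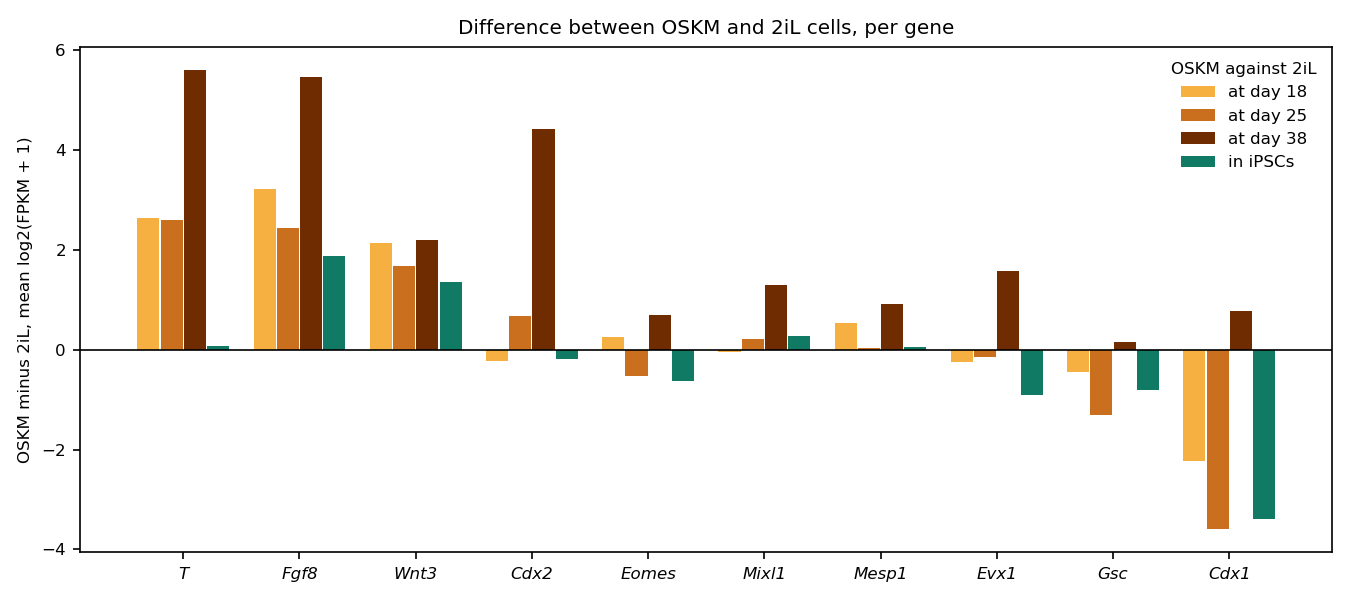
Difference of mean log2(FPKM + 1) between OSKM and 2iL cells (y axis) for each gene (x axis) at days 18, 25 and 38 in ESCs and in iPSCs (bars, each from 2 against 2 libraries, without an error bar). T, Fgf8, Wnt3 and the low gene Mesp1 are above 0 in all 4 comparisons, T only at 0.07 in iPSCs, and Cdx1 is at -2.24, -3.60, 0.78 and -3.38 in that order.

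The first comparison asked how the genes differed between the media on the days that did not choose them. OSKM-ESCs of days 18 and 25 (4 libraries) were compared with 2iL-ESCs of those days (4 libraries) with day as a covariate. Of the 10 genes, 7 were tested, and 3 were called higher in OSKM-ESCs (T, Fgf8 and Wnt3), 2 lower (Cdx1 and Gsc) and 2 neither (Cdx2 and Eomes). Of the 13564 genes tested, 21.8% were called higher and 20.2% lower, so calls of either direction were common among all genes. Fgf8 and Wnt3 passed the filter through OSKM-ESCs alone, and Gsc and Cdx2 through 2iL-ESCs alone. The calls of Fgf8, Wnt3 and Gsc are thus no evidence of a difference. Mixl1, Evx1 and Mesp1 did not pass.

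T was higher in OSKM-ESCs by 2.62 (SE 0.14) on the log2 scale with a limma adjusted p of 3.70e-06, 7.23-fold of mean FPKM at day 18 and 9.44-fold at day 25. An exact 2-sided permutation test of its 4 against 4 libraries gave p = 0.0286, the smallest possible when day is ignored, and one within days gave p = 0.0556, the smallest possible there, so that the design could not reach 0.05 with day kept. Fgf8 was higher by 2.82 on the log2 scale, 39.9-fold at day 18 and 32.0-fold at day 25. The difference of Wnt3 was 1.90, against 2iL-ESC libraries that were partly listed at 0. Fgf8 and Wnt3 passed the filter through OSKM-ESCs alone and are given without a test.

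Cdx1 was lower in OSKM-ESCs by 2.92 on the log2 scale (log2 fold change -2.92, SE 0.30, limma adjusted p = 0.000127), with 5.13 times as much in 2iL-ESCs at day 18 and 18.3 times at day 25. Gsc, given without a test because it passed the filter through 2iL-ESCs alone, had a log2 fold change of -0.88. Its mean was 0.547 FPKM in 2iL-ESCs and 0.137 in OSKM-ESCs at day 18, and 1.68 and 0.0818 at day 25. Cdx2 differed by 0.23 and was not called, and it is given without a limma p because it passed the filter through 2iL-ESCs alone. The exact 2-sided permutation test of its 4 against 4 libraries, which uses no filter, gave p = 0.457, and within days p = 0.333. Eomes differed by -0.13 (SE 0.19, limma adjusted p = 0.609). Leaving out each of the 8 libraries in turn left the same numbers of genes called in each direction. Those calls include Fgf8, Wnt3 and Gsc, for which the filter makes a stable call no evidence, so the stability speaks only for T and Cdx1.

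The next comparison asked whether the difference between the media had the same size at day 25 as at day 18, by the interaction of medium and day. Of the 7 genes tested, 1 was called higher (7.95% of all 13564 genes were) and 2 lower (17.1% of all genes were). For Cdx2 the difference between OSKM-ESCs and 2iL-ESCs was -0.22 at day 18 and 0.67 at day 25, a change of 0.89. It was the mean in 2iL-ESCs, 1.20 at day 18 and 0.0463 FPKM at day 25, that moved most. For Gsc the differences were -0.44 and -1.31, a change of -0.87. Cdx2 passed the filter only through 2iL-ESCs of day 18 and Gsc only through those of day 25. Their calls are thus no evidence of a changed difference, and both are given without a test. For Cdx1 they were -2.24 and -3.60, a change of -1.36 (SE 0.38, limma adjusted p = 0.0371). The call of Cdx1 was lost without any 1 of 6 of the 8 libraries.

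The difference of T was 2.64 at day 18 and 2.59 at day 25, a change of -0.05 (SE 0.26, limma adjusted p = 0.898), although T was lower at day 25 in both media. Its mean in OSKM-ESCs was 3.07 times as high at day 18 as at day 25, and in 2iL-ESCs 4.00 times as high. Eomes (-0.77, SE 0.25, limma adjusted p = 0.0563) was not called. Fgf8 (-0.77) and Wnt3 (-0.46) were not called either, and they are given without a test because they passed the filter through OSKM-ESCs alone.

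Within OSKM-ESCs, days 18 and 25 were then compared (2 against 2 libraries). Of the 5 genes tested, T, Cdx1 and Fgf8 were called lower at day 25 and 0 higher, where 7.31% of 12575 genes were called lower and 7.09% higher. At an unadjusted p under 0.05, limma gave 4 of the 5 genes and 33.6% of all genes. T fell by 1.53 on the log2 scale (log2 fold change -1.53, SE 0.18, limma adjusted p = 0.00348). Cdx1 had a log2 fold change of -1.41 (SE 0.29, limma adjusted p = 0.0197) and Fgf8 one of -0.89 (SE 0.23, limma adjusted p = 0.0419). Wnt3 differed by -0.47 (SE 0.19, limma adjusted p = 0.120) and Eomes by -0.05 (SE 0.19, adjusted p = 0.866). Without either library of day 25, or without the second of day 18, T was the 1 gene of the 3 still called, and without the first of day 18 T and Cdx1 were. Without the filter on low values limma called 0 of the 10 genes and 0 of 24019 genes, and Fgf8 was also not called with quantile normalization, TPM or no trend.

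At day 38 T, Fgf8, Cdx1 and Cdx2 were the 4 most abundant of the 10 genes in OSKM-ESCs, and the values are a description because they chose the set. The mean FPKM in OSKM-ESCs was 63.7 times that in 2iL-ESCs for T, 104 times for Cdx2, 41.1 times for Wnt3, 11.9 times for Mixl1, 11.1 times for Evx1, 1.82 times for Eomes and 1.73 times for Cdx1. Fgf8 differed by 5.46 and Mesp1 by 0.91 on the log2 scale, with 1 of the 2iL-ESC libraries listed at 0 for each, and Gsc, under 1 FPKM in both groups, by 0.15. From day 25 to day 38 the mean in OSKM-ESCs was 14.5 times as high for T, 28.1 times for Cdx1, 27.0 times for Evx1, 9.12 times for Fgf8 and 1.66 times for Wnt3. Wnt3 was thus the gene of the set whose level in OSKM-ESCs differed least between day 18 and day 38, at 1.06 times. With 1 series of days from 1 ESC line and no day repeated in another series, day and any other difference between the cultures collected then cannot be told apart.

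In iPSCs the question was whether the difference between the media was also found in clones reprogrammed from MEF cells. OSKM-iPSCs (2 clones) were compared with 2iL-iPSCs (2 clones), and of the 7 genes tested 1 was called higher in OSKM-iPSCs (Fgf8) and 1 lower (Cdx1), where 5.0% of 13653 genes were called higher and 2.96% lower. Fgf8 was higher by 1.88 on the log2 scale, 22.0-fold of mean FPKM. Cdx1 had a log2 fold change of -3.38 (SE 0.34, limma adjusted p = 0.0113), with 20.9 times as much in 2iL-iPSCs. Both calls were lost when either 2iL-iPSC clone was left out, with adjusted p from 0.318 to 0.323, and clone, passage and medium cannot be told apart here, given the different passages of the OSKM and 2iL clones. Fgf8 passed the filter through the OSKM clones alone, so its call is no evidence of a difference and it is given without a test.

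Eomes (-0.62, SE 0.26, limma adjusted p = 0.180) was not called. Wnt3 (1.34), Evx1 (-0.91) and Gsc (-0.81) were not called either, and they are given without a test because each passed the filter through 1 clone alone. T differed by 0.07 (SE 0.52, limma adjusted p = 0.938), and its value was -0.65 without OSKM-iPSC clone 1 and 0.80 without clone 3, and -0.15 without 2iL-iPSC clone 6, so that single clones set the sign. Evx1 passed the filter through 2iL-iPSC clone 3 alone, Gsc through 2iL-iPSC clone 6 alone, and Wnt3 through OSKM-iPSC clone 1 alone. Without OSKM-iPSC clone 3, which leaves OSKM-iPSC clone 1 alone, Wnt3 differed by 1.86. Cdx2, Mixl1 and Mesp1 did not pass the filter.

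The difference between the media in iPSCs was then set against that in ESCs of days 18 and 25 by an interaction of medium and cell type. Of the 8 genes tested, only T was called, lower in iPSCs, and of 14319 genes 2.07% were called lower and 4.27% higher. The difference of T between media was smaller in iPSCs (interaction -2.54, SE 0.48, limma adjusted p = 0.0205). It ranged from -3.27 without OSKM-iPSC clone 1 to -1.81 without OSKM-iPSC clone 3, and its adjusted p rose to 0.0707 without 2iL-iPSC clone 3, to 0.0529 without the first 2iL-ESC library of day 18, and to 0.0575 or 0.0507 without the first or second of day 25. For Cdx1 (-0.46, SE 0.40, limma adjusted p = 0.511) limma made no call. Fgf8 (-0.94) and Wnt3 (-0.55) passed the filter through OSKM cells alone and Evx1 (-0.71) through 2iL-iPSC clone 3 alone. They were not called and are given without a test.

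Genes of the same pathway were read from 3 lists that hold none of the 10. The list of streak and nascent mesoderm had 26 genes. At days 18 and 25, 12 were tested, with a median log2 difference of 0.91 against 0.01 over all genes tested. Of the 12, 9 were called higher in OSKM-ESCs and 2 lower, where 21.8% of all genes were called higher and 20.2% lower. The filter was passed through OSKM-ESCs alone by 5 and through 2iL-ESCs alone by 1. MEF cells also express genes of this list, which summed to 104.5 and 107.2 FPKM there. The sums were 44.7 to 80.3 in OSKM-ESCs and 27.05 to 41.9 in 2iL-ESCs of days 18 and 25. At day 38, 20 were tested and 20 were called higher, with a median of 2.49 against 0.07 over all genes, where 34.6% of 13142 genes were called higher. The other 6 of the list (Kdr, Foxf1, Mesp2, Hand1, Evx2 and Etv2) were at or under 1 FPKM in the day 38 libraries. Of the 20, 15 passed the filter through OSKM-ESCs alone and so had to differ, and the list was chosen with day 38 results of these cells known.

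At day 38 the largest differences of this list were those of Hoxb1, Msgn1 and Tbx6, which passed the filter through OSKM-ESCs alone and are given without a test. Hoxb1, a Hox gene expressed in the posterior streak, was at 20.4 and 20.8 FPKM in OSKM-ESCs and at 0 and 0.0439 in 2iL-ESCs (log2 difference 4.40). Msgn1, a regulator of presomitic mesoderm, was at 10.7 and 12.2 against 0 and 0.0533 (3.60). Tbx6, the T-box gene of paraxial mesoderm, was at 14.8 and 13.3 against 0.346 and 0.257 (3.53). Both Msgn1 and Tbx6 were at or under 0.507 FPKM in OSKM-ESCs of days 18 and 25. Hoxb1 was at 0.988 to 1.38 there.

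At days 18 and 25 the genes of this list with the largest higher differences were Cyp26a1, Tcf15 and Dll1. Cyp26a1, which degrades retinoic acid at the posterior end, was at 5.19 and 4.79 FPKM in OSKM-ESCs of day 18 and at 2.12 and 1.75 at day 25, against at most 0.184 in 2iL-ESCs (log2 difference 2.01), and as it passed the filter through OSKM-ESCs alone it is given without a test. Tcf15 (1.45, SE 0.35, limma adjusted p = 0.0111) and the Notch ligand Dll1 (1.22, SE 0.12, adjusted p = 0.0001002) followed. The difference of Tcf15 was 0.54 at day 18, where its OSKM-ESC and 2iL-ESC libraries overlapped, and 2.36 at day 25. The lower genes were Sp5, a WNT target (-1.44, SE 0.21, limma adjusted p = 0.000825), and Aldh1a2, which makes retinoic acid (-1.20, SE 0.22, adjusted p = 0.00258). Both were higher in OSKM-ESCs at day 38, Sp5 at 14.9 and 15.9 FPKM against 6.58 and 5.67, and Aldh1a2 at 13.5 and 14.2 against 2.76 and 2.92, so they changed sides between the earlier days and day 38 as Cdx1 did.

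**Figure D3:**
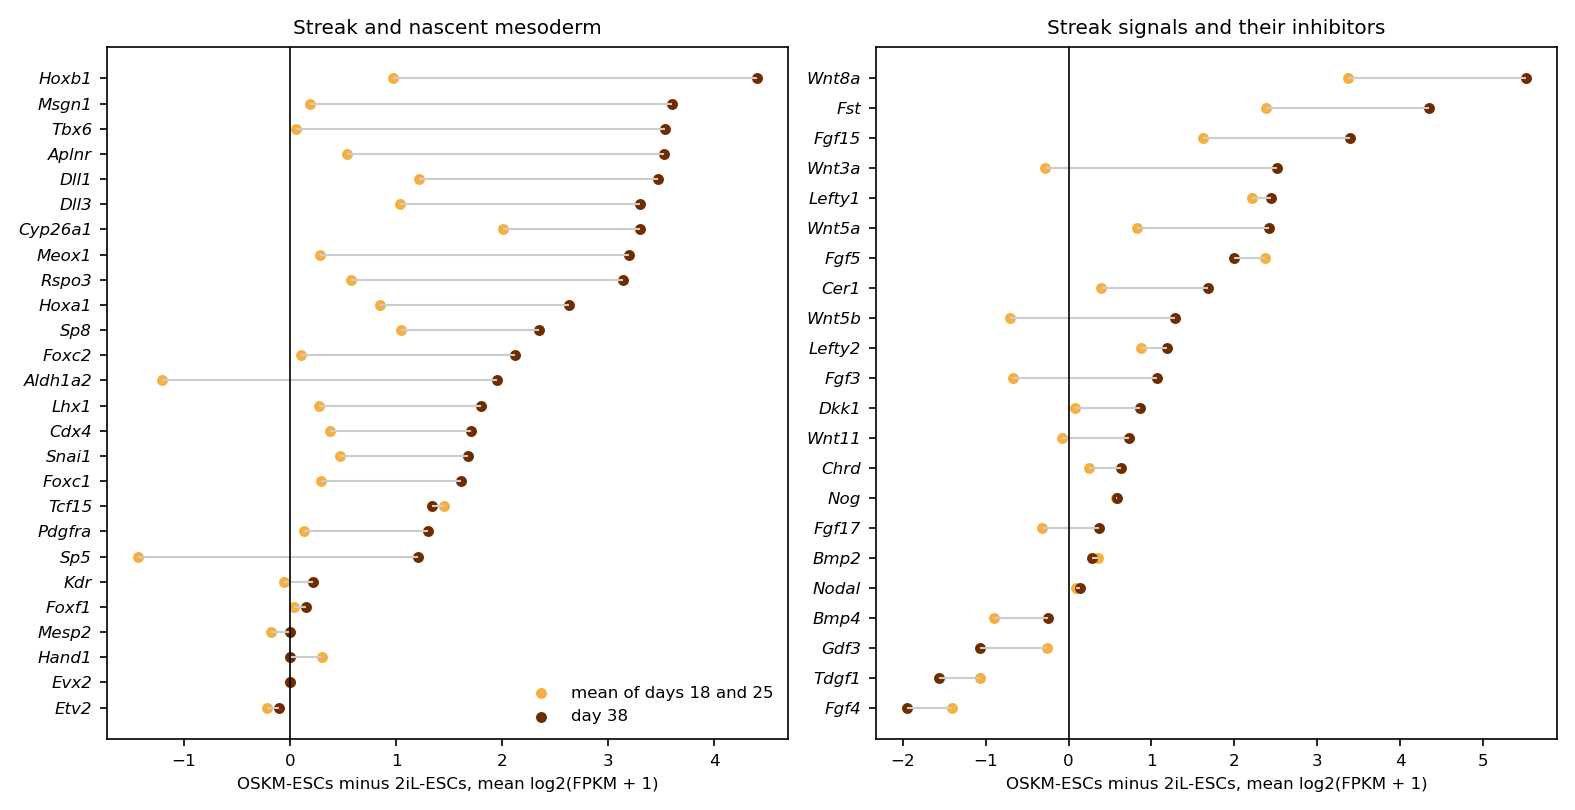
Difference of mean log2(FPKM + 1) between OSKM-ESCs and 2iL-ESCs (x axis) for each gene of the lists of streak and nascent mesoderm (left) and of streak signals and inhibitors (right), as the mean of days 18 and 25 (light points) and at day 38 (dark points), joined by a line. At day 38 Hoxb1 is at 4.40 and Wnt8a at 5.52, and Sp5 and Aldh1a2 lie below 0 on the earlier days and above 0 at day 38.

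Among 22 genes of streak signals and their inhibitors, 18 were tested at days 18 and 25, with a median log2 difference of 0.17. Of these, 7 were called higher and 5 lower, where 21.8% of all genes were called higher and 20.2% lower. Of the 18, 4 passed the filter through OSKM-ESCs alone and 3 through 2iL-ESCs alone. At day 38, 20 were tested, and 14 were called higher and 3 lower (25.2% of all genes were called lower), with a median of 1.12, and 9 of the 20 passed the filter through OSKM-ESCs alone. Wnt8a, a ligand of the posterior streak, had the largest difference of this list over days 18 and 25 together and at day 38, while at day 18 alone Lefty1 had a larger one (3.23 against 2.87). Wnt8a stood at 25.5 and 26.6 FPKM in OSKM-ESCs of day 18, at 21.3 and 18.9 at day 25 and at 83.8 and 87.1 at day 38, against at most 2.79 in 2iL-ESCs (days 18 and 25, 3.37, SE 0.20, limma adjusted p = 6.36e-06). It was also higher in OSKM-iPSCs, at 18.2 and 11.3 against 2.52 and 1.19 (2.47, SE 0.34, adjusted p = 0.0216).

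Follistatin (Fst), an inhibitor of activin and a gene that MEF cells express at 64.0 and 72.2 FPKM, was higher at days 18 and 25 by 2.38 (SE 0.18, limma adjusted p = 2.56e-05), at 7.60 to 16.2 FPKM against 1.02 to 1.62. At day 38 it differed by 4.34 (SE 0.11, adjusted p = 1.44e-05). Fgf5, an epiblast ligand, and Fgf15, a ligand of the posterior neural plate and a known FGF and WNT responder, passed the filter through OSKM cells alone and are given without a test. Fgf5 stood at 3.09 to 6.10 FPKM in OSKM-ESCs of days 18 and 25 against at most 0.0855 in 2iL-ESCs, and at 2.47 and 2.95 in OSKM-iPSCs against 0.216 and 0.0852 in 2iL-iPSCs. Fgf15 stood at 10.7 and 13.1 FPKM in OSKM-ESCs of day 38 against 0.0532 and 0.414 in 2iL-ESCs.

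On the other side, Fgf4, the ESC ligand that drives ERK, was lower in OSKM cells in the 3 media comparisons, with log2 fold changes of -1.41 at days 18 and 25 (SE 0.20, limma adjusted p = 0.000723), -1.95 at day 38 (SE 0.08, adjusted p = 3.88e-05) and -1.48 in iPSCs (SE 0.28, adjusted p = 0.0408). So was Tdgf1 (Cripto), the coreceptor of Nodal, at -1.07 (SE 0.12, adjusted p = 0.000178), -1.56 (SE 0.04, adjusted p = 1.53e-05) and -1.04 (SE 0.17, adjusted p = 0.0299). Bmp4 was lower at days 18 and 25 (-0.90, SE 0.11, adjusted p = 0.000311), and Gdf3, a Nodal coligand, at day 38 (-1.07, SE 0.08, adjusted p = 0.000235). In iPSCs 17 of this list were tested, and 3 were called higher and 2 lower (5.0% and 2.96% of all genes were). Of the 17, 5 passed the filter through the OSKM clones alone and 2 through the 2iL clones alone. The Nodal inhibitor Lefty1 led, at 290 and 158 FPKM in OSKM-iPSCs against 20.2 and 36.9 in 2iL-iPSCs (2.92, SE 0.39, limma adjusted p = 0.0198). Of the streak and nascent mesoderm list, 10 were tested in iPSCs and only Cyp26a1 was called, at 2.47 and 3.38 FPKM against 0 and 0.121, having passed the filter through the OSKM clones alone.

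Of 9 WNT feedback targets, 7 were tested at days 18 and 25, and 1 was called higher and 3 lower in OSKM-ESCs (21.8% and 20.2% of all genes were). Notum, a secreted WNT deacylase, had a log2 fold change of -1.91 (SE 0.19, limma adjusted p = 0.000116), Sp5, which is in 2 of the lists, the -1.44 given above, and Axin2 one of -1.36 (SE 0.10, adjusted p = 2.60e-05), whereas Nkd1 was higher by 0.86 (SE 0.20, adjusted p = 0.00954). At day 38, 7 were tested, and Nkd1 (2.52, passing the filter through OSKM-ESCs alone), Sp5 (1.21, SE 0.09, adjusted p = 0.000262) and Tcf7 (0.37, SE 0.05, adjusted p = 0.0026) were called higher (34.6% of all genes were) and Notum lower (-1.76, SE 0.17, adjusted p = 0.000626). Axin2 was at 15.3 and 15.5 FPKM in OSKM-ESCs of day 38 against 15.0 and 13.5 in 2iL-ESCs, and at 4.45 to 6.68 against 13.4 to 19.4 on the earlier days. In iPSCs 7 were tested and 2 were called, Notum (-3.02, SE 0.21, adjusted p = 0.00718) and Axin2 (-1.77, SE 0.36, adjusted p = 0.0461), both lower in OSKM-iPSCs.

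Over the 16 ESC and iPSC libraries, the genes whose log2(FPKM + 1) was most like that of T among 13781 genes were Tmem176b (Pearson r = 0.968), Ctrl (0.953), Rtl8c (0.952), Tmem267 (0.952) and Fst (0.950). Without the 2 OSKM-ESC libraries of day 38, their r over 14 libraries was between 0.883 and 0.934. The genes most like Cdx2 were Msgn1 (r = 0.973), Hoxb5os (0.972), Gm28230 (0.972), Hes7 (0.972), a clock gene of the presomitic mesoderm, and Gm45889 (0.972). Without the same 2 libraries their r was between 0.174 and 0.401, so this likeness is that of genes high in those 2 libraries, which share a day and a medium. Msgn1 was at 11.5 FPKM there in the mean and at most at 0.376 in the other 14, and Hes7 at 6.79 and at most 0.440.

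Among the 10 genes themselves, r of T with Cdx2 was 0.845 over 16 libraries and 0.627 over 14, and that of Wnt3 with Fgf8 0.930 and 0.974. Cdx1 went with Gsc (0.788 and 0.786) and, without day 38, against Wnt3 (-0.756) and Fgf8 (-0.747). These values are descriptive, and the libraries of 1 group are not independent points.

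Markers of other cells were summed per library beside these results. Their counts at days 18 and 25 stand against 21.8% of all genes called higher and 20.2% lower, those at day 38 against 34.6% and 25.2%, and those in iPSCs against 5.0% and 2.96%. Fibroblast markers (10 genes) summed to 17.3 to 28.8 FPKM in OSKM-ESCs, to 3.52 to 5.66 in 2iL-ESCs and to 1037 and 1184 in MEF cells. At days 18 and 25 all 7 tested were called higher in OSKM-ESCs, with a median of 1.12, and at day 38 all 6 tested were, but 5 of the 7 and 5 of the 6 passed the filter through OSKM-ESCs alone. In OSKM-iPSCs the sum was 76.2 in clone 1 and 5.50 in clone 3, with Col1a2 at 36.1 and 0.130 FPKM, and in 2iL-iPSCs it was 1.98 and 3.42, and limma called 0 of the 8 tested. MEF cells themselves had T at or under 0.0955 FPKM and listed Fgf8, Wnt3 and Cdx2 at 0. The part of feeder cells or of MEF cells that escaped reprogramming in any value was not tested.

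Trophoblast markers (9 genes) stand beside Cdx2 and Eomes, which that lineage also uses. Their sum was 3.08 to 4.25 FPKM in OSKM-ESCs of day 38, where Gata3, Elf5 and Prl3d1 were listed at 0 in both libraries, and 3.63 to 4.00 in 2iL-ESCs of that day. At day 38, 0 of the 3 tested were called higher by limma and 1 lower. Of those 3, 1 passed the filter through OSKM-ESCs alone and 1 through 2iL-ESCs alone. At days 18 and 25, 1 of 5 was called higher, and 1 of the 5 passed through 2iL-ESCs alone. In OSKM-iPSCs the sum ranged from 24.4 to 74.2, while Cdx2 was at 0.426 in clone 1 and at 0.277 in clone 3. Of the 7 tested, 1 was called higher than in 2iL-iPSCs, and 4 of the 7 passed the filter through the OSKM clones alone.

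Epiblast markers (6 genes) summed to 194 to 230 FPKM in OSKM-ESCs of day 18, to 482 at day 25 and to 217 to 221 at day 38, against 90.5 to 134 in 2iL-ESCs. The sum was highest in OSKM-ESCs at day 25, when T, Cdx1 and Fgf8 were lowest there, and most of it was Dnmt3b, a DNA methyltransferase, at 358 to 366 FPKM that day. Without Dnmt3b the sums at days 18, 25 and 38 were 50.3 to 74.8, 116 to 124 and 63.0, whereas Otx2 alone was at 8.67 to 10.2, 12.1 to 12.5 and 13.7 to 14.6. Naive pluripotency markers (6 genes) summed to 710 to 935 in OSKM-ESCs and to 1358 to 1512 in 2iL-ESCs, and Pou5f1, Nanog and Zfp42 were listed at 0 in MEF cells. Pou5f1 (Oct4), which the DOX-induced cassette also encodes, made up most of the sum in OSKM-ESCs, and without it the sums were 75.5 to 137 in OSKM-ESCs and 656 to 916 in 2iL-ESCs. At days 18 and 25 all 5 epiblast markers tested were called higher and 5 of 6 naive markers lower in OSKM-ESCs, and 2 of the 5 epiblast markers passed the filter through OSKM-ESCs alone. Of neural markers (8 genes), 3 of 4 tested were called higher and 1 lower there, and 1 of the 4 passed the filter through OSKM-ESCs alone. Their sums were 45.6 to 65.5 in OSKM-ESCs and 50.3 to 62.9 in 2iL-ESCs of those days.

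**Figure D4:**
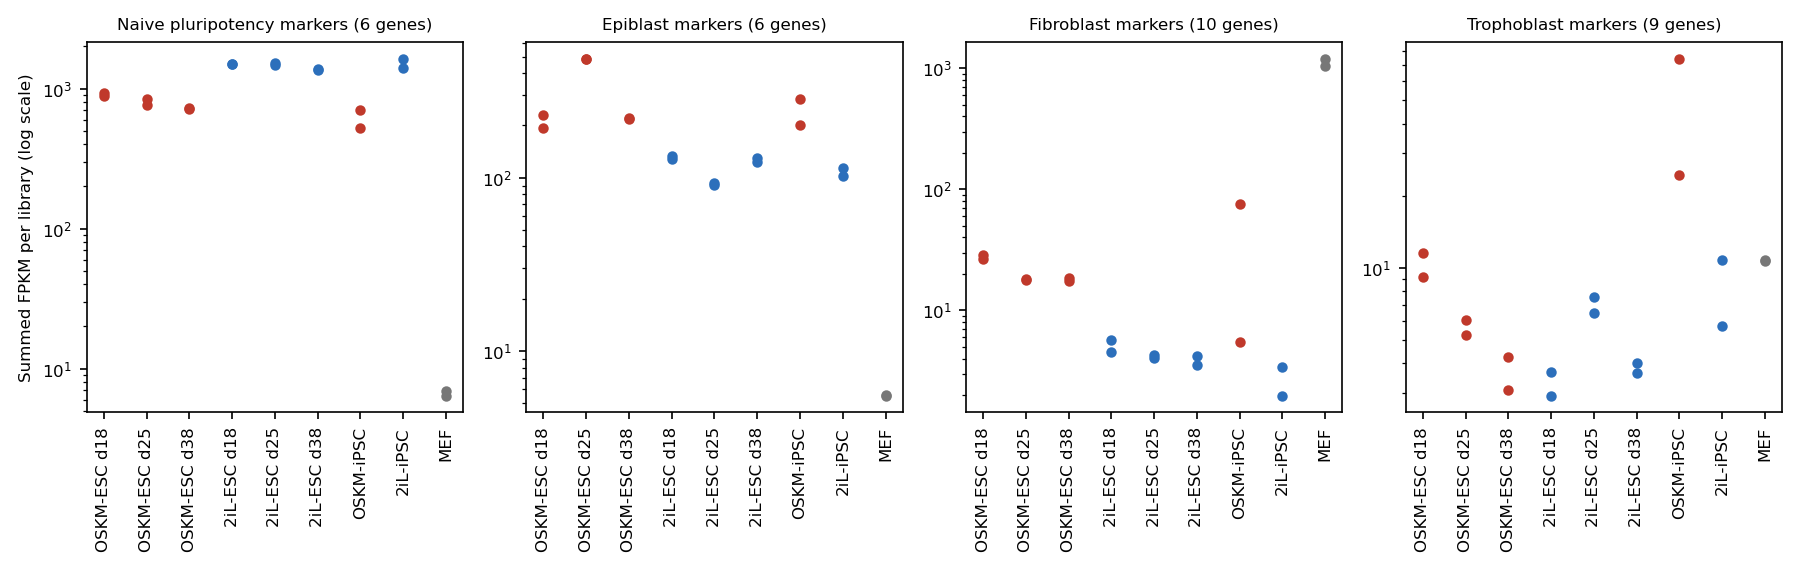
Summed FPKM per library (log y axis) of 4 marker lists in the 9 groups, 2 points per group (red, OSKM medium; blue, 2iL; grey, MEF cells). The fibroblast sum is 17.3 to 28.8 in OSKM-ESCs against 3.52 to 5.66 in 2iL-ESCs, and the OSKM-iPSC clones lie apart at 5.50 and 76.2.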

How the data were processed

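RNA-Seq of 18 libraries was analysed, 2 per group. The authors extracted RNA with TRIzol, aligned to GRCm38 with STAR 2.7.1a, retained reads that mapped once, and quantified genes with StringTie 2.0. FPKM was deposited by the authors as StringTie gave it, scaled by transcript length and mapped fragments. Coverage, an unscaled signal per base also deposited by the authors, served only to gauge depth. Cuffdiff 2.2.1, the authors' test, needs aligned reads, so limma 3.58.1 (R 4.3.3, with a trend in its prior variance) was run on log2(FPKM + 1). The filter kept genes above an FPKM of 1 in 1 or more of the libraries compared. P-values were Benjamini-Hochberg adjusted over all genes tested. Repeated entries of 11 genes were added up, and 2 genes with a failed value were left out.

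Groups came from the sample labels. No batch or date is given there. The 10 genes, the lists and the tests were chosen with earlier results of these data known. The genes named were all 10, up to 3 called higher and 3 called lower with the largest difference per pathway list and media comparison, and the 5 most like T and Cdx2. Same-numbered libraries were paired only in an alternative. Permutation tests used scipy 1.17.1 under Python 3.11.15. The procedure was tested on simulated data. Alternatives were a pseudocount of 0.1, no filter, median-ratio scaling, quantile normalization, FPKM rescaled to TPM, no trend, 1 fit of all 9 groups, the study's cutoff (fold over 2 and unadjusted p under 0.05), a replicate block, permutation within days (added after the data were seen) and leaving out each library. Cdx1's promoter was not used here.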

Additional observations from a re-analysis of the deposited data

Results flagged for a closer look

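By a limma interaction, the difference between media was called as differing between days or cell types for 4 genes. From day 18 to day 25 the difference changed by 0.89 for Cdx2, by -0.87 for Gsc and by -1.36 for Cdx1 (adjusted p = 0.0371). Cdx2 passed the filter only through 2iL-ESCs of day 18 and Gsc only through those of day 25. Their calls are thus no evidence of a changed difference, and both are given without a test. When 1 of the 8 libraries was left out, the change of Cdx2 was 0.83 to 0.96. The call of Gsc was lost without the second 2iL-ESC library of day 18 or the first of day 25, and with a pseudocount of 0.1. When a library was left out, Cdx1 was called only without the first OSKM-ESC library of day 18 or of day 25 (adjusted p = 0.0165 and 0.0243), and not without any 1 of the other 6 (0.0794 to 0.108), nor without the filter (0.114) or with median-ratio scaling (0.0577). Gsc and Cdx2 were under 2 FPKM in every library of this test. Between ESCs and iPSCs the difference of T changed by -2.54 (adjusted p = 0.0205). Over the 12 fits that left out a library it ranged from -3.27 to -1.81, and its adjusted p was over 0.05 without 2iL-iPSC clone 3 (0.0707), the first 2iL-ESC library of day 18 (0.0529) or either of day 25 (0.0575 and 0.0507), and also without the filter (0.0521). The 2 OSKM-iPSC clones had T at 3.53 and 0.659 FPKM.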

How the results depend on the processing

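For OSKM-ESCs against 2iL-ESCs at days 18 and 25, 118 of 119 values of single genes under the alternatives kept their direction and side of the threshold, and the exception was Eomes at 0.00221 without the first 2iL-ESC library of day 25 (range over the libraries left out, -0.30 to 0.00221). These values include those of Fgf8, Wnt3, Gsc and Cdx2, which passed the main filter through only OSKM-ESCs or only 2iL-ESCs. For them a kept side of the threshold is no evidence. Among all genes, the study's cutoff called 1588 higher and 1487 lower. In iPSCs, 64 of 81 values kept theirs. T changed sign at -0.0238 with a pseudocount of 0.1 and at -0.14 with quantile normalization, and ranged from -0.65 to 0.80 when a clone was left out. Without the filter limma called 0 of the 10 genes in iPSCs in either direction (6 at an unadjusted p under 0.05) and 0 of all 25331 genes (5014). In 1 fit of all groups 2 of the 10 were called higher and 4 lower, with 3800 and 2343 of all genes, and by the study's cutoff 2 and 2, with 1564 and 864. Leaving out a clone gave 0 to 2 higher and 0 to 1 lower, and 0 to 1392 and 0 to 684 of all genes, the 0 arising without either 2iL-iPSC clone. Quantile normalization called 422 of all genes higher. The share of higher among called genes in iPSCs was 62.8%, but 51.8% with median-ratio scaling and 49.0% with quantile normalization, which moved the median difference of all genes from 0.09 to -0.02.

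From day 18 to day 25 in OSKM-ESCs, 49 of 65 values kept theirs. Without the filter 0 of the 10 were called (4 at an unadjusted p under 0.05) and 0 of all 24019 genes in either direction (5066). Leaving out a library gave 1 to 2 of the 10 lower, and 62 to 404 of all genes higher and 120 to 448 lower. Fgf8 was also not called with quantile normalization (adjusted p = 0.0573), TPM (0.0601) or no trend (0.0527), nor by the study's fold. Eomes was at 0.0266 with TPM and ranged from -0.28 to 0.18 when a library was left out. TPM called 609 of all genes lower and moved the share of higher among called from 49.3% to 64.0%. In 1 fit of all groups 1608 and 1619 of all genes were called, and by the study's cutoff 570 and 535. The causes were not tested. For the interactions, added after the data were seen, the genes called numbered 1 to 4 between days and 0 to 2 between cell types when a library was left out, and 3 between cell types in 1 fit of all groups. The 20 streak and nascent mesoderm genes of day 38 numbered 20 under each added alternative that kept all libraries. However, 15 of them passed the main filter through OSKM-ESCs alone, so this count was largely fixed in advance.

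With the replicate number as a block, 3 of the 10 genes were called higher and 2 lower at days 18 and 25, with 2401 and 2171 of all genes. Fgf8, Wnt3 and Gsc were again among them, and because of the filter their calls are no evidence. From day 18 to day 25, 3 were called lower, with 1287 and 1426 of all genes called higher and lower. Deviations of same-numbered libraries correlated at 0.137, 0.0943 and 0.0113 at days 18, 25 and 38. From 2 libraries per group these values cannot tell whether same-numbered libraries share more than a number. With 2 libraries per group and no read counts, Mixl1 and Mesp1 were too low to be tested at days 18 and 25 or in iPSCs.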

Other observations

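Endoderm markers (9 genes) were mostly low. Their sums were 7.41 to 8.85 FPKM in OSKM-ESCs of day 38 and 3.59 to 3.63 in 2iL-ESCs of that day. At day 38, 3 were tested, and limma called 2 higher and 1 lower in OSKM-ESCs (34.6% and 25.2% of all genes were). The 2 are named here after their values were seen, passed the filter through OSKM-ESCs alone and are given without a test. Foxa2, a gene of the anterior streak and definitive endoderm, was at 2.88 and 3.31 FPKM against 0 in both 2iL-ESC libraries. Sox17, a definitive endoderm regulator, was at 1.19 and 2.35 FPKM against 0.274 and 0.0658. Hnf4a and Afp were listed at 0 in both OSKM-ESC libraries of day 38. At days 18 and 25, 1 of the list was tested and called lower, and in iPSCs 1 was tested and limma did not call it. Of neural markers, 4 of 5 tested were called higher and 1 lower at day 38, and 2 of the 5 passed the filter through OSKM-ESCs alone.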
